A study of Mus musculus with 16 samples.

Results

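DNA methylation of 8 genes of the MHC class II antigen presentation pathway (Ciita, Cd74, H2-Aa, H2-Ab1, H2-Eb1, H2-DMa, H2-Oa and H2-Ob) was compared between mouse B and T cells. The genes were taken by name from 21938 protein-coding genes of the GENCODE vM21 annotation on mm10. The 16 whole genome bisulphite libraries came from spleens of C57BL/6J mice aged 6 to 8 weeks. CD43- B cells gave 8 libraries and CD4+ CD62L+ naive T cells gave the other 8, both isolated with magnetic beads. Each cell type had 4 BS and 4 oxBS libraries, 2 of each from each sex. Ordinary bisulphite sequencing (BS) scores 5-methylcytosine and 5-hydroxymethylcytosine alike as methylated, and the oxidised version (oxBS) scores 5-methylcytosine alone. The series describes its starting material as pooled, and no label names a mouse or says whether a BS and an oxBS library were made from the same DNA. The p-values therefore measure the spread between these libraries, which may in part be technical.

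MHC class II molecules are pairs of an alpha and a beta chain that present peptides from endocytosed proteins to CD4+ T cells. B cells, dendritic cells and macrophages make them, and resting mouse T cells largely do not. Transcription of the genes needs the co-activator CIITA, which is recruited by factors bound to short promoter elements shared by the family, and Ciita itself is transcribed from several alternative promoters in different cell types. The invariant chain CD74 escorts new class II molecules to endosomes, where H2-DM removes the last invariant chain peptide and H2-DO restrains H2-DM.

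Each library held 123346598 to 170653234 calls at CpG sites in B cells and 154441442 to 169656013 in T cells, a mean of 5.64 to 7.80 and of 7.06 to 7.76 calls per CpG. The cell types were checked against the windows around the main transcription start site (TSS) of marker genes. Of 7 B cell markers, 6 passed the test below with higher methylation in T cells, and the 7 T cell markers passed it with higher methylation in B cells. None of 7 myeloid and dendritic cell markers passed. Lyz2 was nearest, with a difference of 18.0 points at 46.6% ± 5.77 (SD, n = 8) in B cells against 65.0% ± 3.36 among T cells. Itgax was also higher in T cells, by 5.44 points. Itgam, Fcgr1 and Csf1r went the other way, with differences of -8.31, -4.02 and -0.59 points. Zbtb46 (1.60% and 1.66%) and Flt3 (4.02% and 5.49%) were low in both cell types, which leaves little room for a lower level. A contrast of B with T cells also cannot show myeloid DNA present alike in both. A part of myeloid DNA in the class II values was not tested. Of the 4 CD8 T and NK cell genes, Cd8a and Cd8b1 passed with lower methylation in T cells. Ncr1 and Klrb1c did not pass, and T cells were the higher ones there, by 0.97 and 4.66 points.

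Methylation of a window was taken over 1 kb on either side of each annotated TSS, as the share of methylated calls in each library. A window was called where the adjusted p was under 0.05 and the pooled levels of the cell types differed by at least 20 percentage points. The main TSS windows of Ciita, Cd74, H2-Aa and H2-Eb1 were called, and in each of them every T cell library lay above every B cell library. Of the 20910 main windows tested in the genome, 1 per gene, 0.483% were called with T cells higher. The main windows of H2-Ab1, H2-DMa, H2-Oa and H2-Ob were not called, and their libraries overlapped. Over all annotated starts the 8 genes had 44 windows, of which 15 were called, all with T cells higher; over the 91683 windows tested in the genome, 0.625% were called in this direction. The libraries of the cell types did not overlap, with T cells higher, in 17 of the 44 windows and in 1.84% of all windows. Starts that lie close together share CpGs, so the 15 windows are not separate observations: 3 belong to Cd74, 5 to Ciita, 3 to H2-Aa and 4 to H2-Eb1. The median difference of the 8 main windows was 14.7 points, against -0.52 points over all main windows tested. No gene lay near 14.7 points: the called main windows differed by 24.0 to 55.2 points and the others by -3.45 to 5.34 points.

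**Figure D1:**
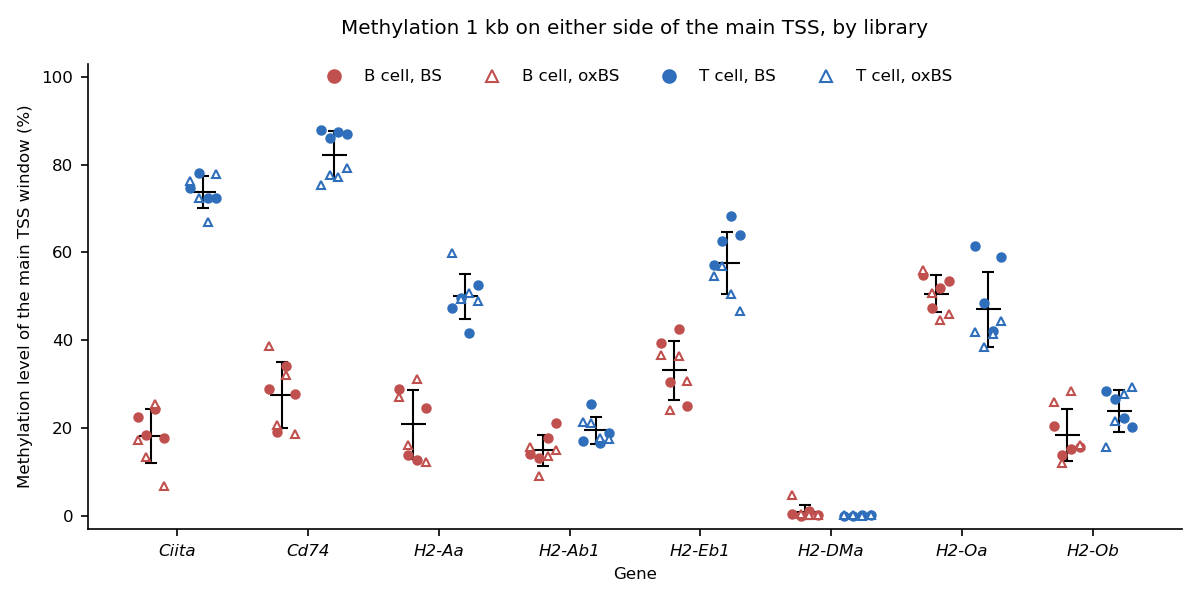
Methylation level (%) of the window 1 kb on either side of the main TSS (y axis) for the 8 genes (x axis). Each point is a library, filled circles BS and open triangles oxBS, red B cells and blue T cells; black bars are the mean ± SD of 8 libraries. The groups are apart at Ciita, Cd74, H2-Aa and H2-Eb1 and overlap at H2-Ab1, H2-DMa, H2-Oa and H2-Ob.

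Ciita, the master co-activator of the pathway, had 1 of the 2 largest differences of the 8 main windows, beside Cd74. Its annotated starts on chromosome 16 fall into 3 groups on the plus strand, which lie 8.1 to 8.2 kb before the main start, at the main start, and about 1.5 kb after it. In the window at the main start (TSS 10488279, 21 CpGs), B cell libraries read 6.88% at the lowest, 18.1% at the median and 25.6% at the highest. The T cell libraries read 67.0%, 73.5% and 78.2%. Every T cell library was above every B cell library. The means were 18.3% ± 6.11 (SD, n = 8) and 73.9% ± 3.65, and the pooled levels differed by 55.2 points (adjusted p = 1.59e-07, quasi-binomial model). With 2 kb on either side the difference was 32.1 points, and the window stayed called.

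The start groups differed in how far the cell types were apart. The window of the most upstream start (TSS 10480059, 21 CpGs) was methylated in both cell types, at 84.6% ± 3.52 in B cells and 87.8% ± 2.89 in T cells, and was not called (difference 2.91 points, adjusted p = 0.263). The window of the third group (TSS 10489746, 39 CpGs) read 17.3% to 35.6% in B cell libraries and 46.1% to 54.4% in T cell libraries, without overlap (difference 23.7 points, adjusted p = 4.59e-05). It shares CpGs with the main window. The 9 CpGs from 979 to 231 bases before the start had pooled levels of 0 to 12.2% in B cells and 50% to 96.4% in T cells. The 7 CpGs from 52 to 170 bases after it were at most at 8.70% and 6.06%. A pair of CpGs 488 to 535 bases after it was again higher in T cells, at 22.9% to 46.9% and 55.9% to 87.3%. The DNA just after this start was therefore low in both cell types, between CpGs that differed.

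Single CpGs gave a finer layout at the main start. The CpG 116 bases before it was methylated in 1.19% of 84 calls in B cells and 3.41% of 88 calls in T cells. From 90 bases before to 981 bases after the start, 14 CpGs in a row were at least 20 points higher in T cells, at 0 to 66.7% in B cells and 38.0% to 98.0% in T cells. Part of this run lies in the intronic tile with the largest difference of the gene. The stretch of 250 bases of that tile with the most CpGs, chr16:10488634-10488883 (plus strand, mm10), had 16 of 235 calls methylated in B cells and 286 of 304 in T cells at its 4 CpGs. It is shown because it holds CpGs with a large contrast, with each CpG in capitals.
Ciita: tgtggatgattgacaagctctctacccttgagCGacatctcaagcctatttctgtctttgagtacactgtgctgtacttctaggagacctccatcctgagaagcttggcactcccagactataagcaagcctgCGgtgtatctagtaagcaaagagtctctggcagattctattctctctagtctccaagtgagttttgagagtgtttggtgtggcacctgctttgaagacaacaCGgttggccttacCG

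In tiles of 500 bp, 13 of the 75 Ciita tiles tested were called, all with T cells higher, against 1.11% of the 2253019 tiles tested in the genome. A run of 6 called tiles spanned 3000 bp (chr16:10486501-10489500) around the main start. The tile with the largest difference, chr16:10488501-10489000, lay in the intron just downstream of the main start. It read 0 to 16.1% in the 8 B cell libraries and 88.4% to 97.1% in the 8 T cell libraries, a difference of 86.6 points (adjusted p = 1.18e-07). The next tile downstream read 0 to 8.11% and 71.4% to 86.8%. Further called tiles lay at chr16:10491501-10492500, with a difference of 60.4 points in the first and 29.8 points in the second, and at chr16:10496001-10496500, with 23.2 points. A last set lay 20 kb and more into the gene. There the tile at chr16:10516001-10516500 (10 CpGs) read 0 to 5.33% in B cells and 41.5% to 49.6% in T cells, and that at chr16:10518001-10518500 differed by 44.9 points. These downstream tiles also overlap the gene Dexi in the annotation, so they cannot be assigned to Ciita alone.

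**Figure D2:**
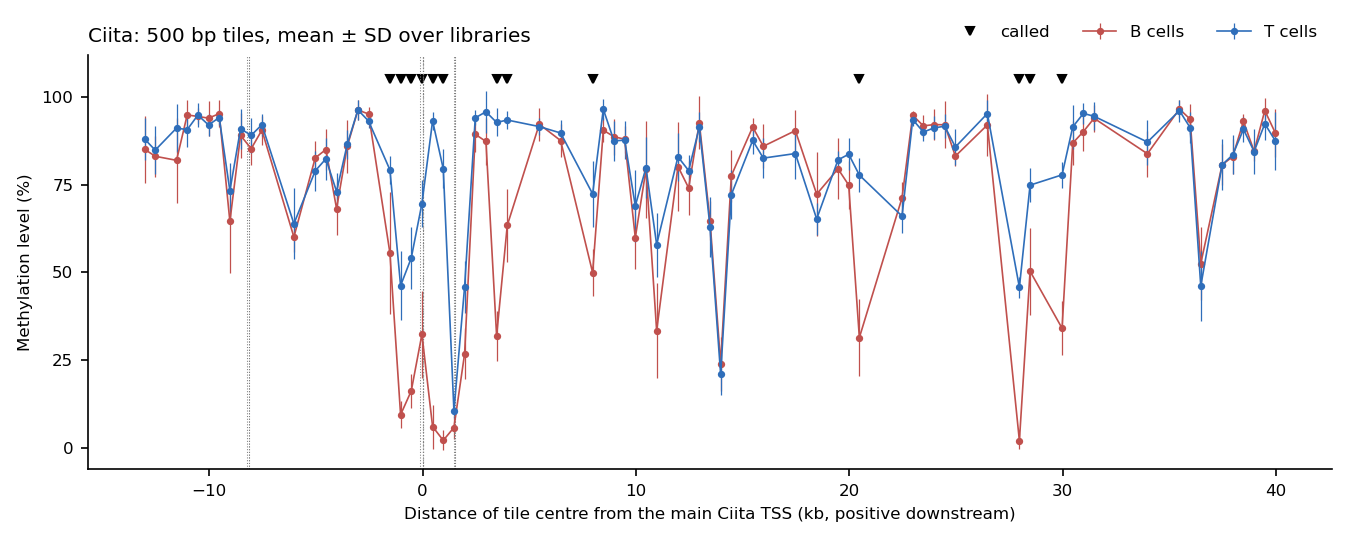
Methylation level (%, y axis) of 500 bp tiles along Ciita against the distance of the tile centre from the main TSS (kb, x axis). Points are means and bars SD over the libraries with enough calls, red B cells and blue T cells; black triangles mark the 13 called tiles and dotted lines the annotated starts. B cells drop below T cells around the main start, while both are high at the starts 8.1 to 8.2 kb upstream.

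Cd74, which encodes the invariant chain, had a contrast of similar size. Its main window (chromosome 18, TSS 60803848, 16 CpGs) read 18.8%, 28.4% and 38.6% at the lowest, median and highest B cell library. The T cell libraries read 75.4%, 82.7% and 87.9%. The groups did not overlap, and the pooled levels differed by 54.9 points (adjusted p = 5.57e-07). The CpGs next to the Cd74 start differed. The CpG 76 bases upstream was methylated in 3.85% of 52 calls in B cells and 88.0% of 83 calls in T cells, and that 57 bases upstream in 4.35% of 46 and 49.4% of 79 calls. Over the 200 bases before the start the pooled level was 4.08% in B cells (95% Wilson interval 1.60 to 10.0%) and 69.1% in T cells (61.6 to 75.7%). In all, the 12 CpGs from 771 bases before to 272 bases after the start were at least 20 points higher in T cells. The 3 CpGs from 833 to 887 bases after it read 5.41% to 18.2% in B cells and 79.3% to 84.8% in T cells. In tiles, 5 of 18 tested were called, with T cells higher, against 1.11% in the genome. A pair lay at the start (60803001 to 60804000, differences 55.5 and 55.1 points) and the other 3 in introns downstream, with differences of 28.4, 37.3 and 26.5 points. B cells kept 8 libraries in 1 of these 5 tiles and 6 or 7 in the others, because libraries with under 20 calls were left out.

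H2-Aa, H2-Ab1 and H2-Eb1 encode the chains of the classical class II molecules I-A and I-E on chromosome 17. The starts of H2-Aa and H2-Eb1 were called and that of H2-Ab1 was not. The window of H2-Aa (TSS 34287823, 19 CpGs) read 12.3%, 20.4% and 31.1% at the lowest, median and highest B cell library and 41.6%, 49.5% and 59.8% in T cells, a difference of 28.0 points (adjusted p = 0.000169). H2-Eb1 (TSS 34305867, 14 CpGs) read 24.1%, 33.6% and 42.6% in B cells and 46.7%, 57.0% and 68.3% in T cells, a difference of 24.0 points (adjusted p = 0.000251). H2-Ab1 (TSS 34263209, 32 CpGs) read 9.09%, 14.6% and 21.2% in B cells and 16.6%, 18.3% and 25.5% in T cells, a difference of 4.86 points that was not called (adjusted p = 0.067). Male libraries alone gave 8.08 points at H2-Ab1 and female ones 1.51 points, and the sign turned (-1.18 points) with 500 bp on either side of the TSS. At H2-Aa and H2-Eb1 no library overlapped the other group, and at H2-Ab1 they did. With BS, oxBS, male or female libraries alone, 4 per cell type, neither H2-Aa nor H2-Eb1 was called, with differences of 26.8 to 29.2 points and 19.1 to 28.9 points. B cell libraries were shallower at these genes, with medians of 77.5 calls in the H2-Aa window against 144 in T cells and of 63 against 136 at H2-Eb1.

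The bases before the 3 starts are shown because class II promoters are known to hold short regulatory elements there, and because of the levels of their CpGs, given after them. Capitals mark each CpG and every exact match of the letters GCAAC and ATTGG, on either strand. GCAAC is part of the X box, bound by RFX, and ATTGG is the core of the Y box, bound by NF-Y. A match is of letters only and need not be such an element, and binding was not measured. The letters of the motifs do not overlap each other. The stretches of 180 bases are chr17:34287824-34288003 on the minus strand for H2-Aa, and chr17:34263029-34263208 and chr17:34305687-34305866 on the plus strand for H2-Ab1 and H2-Eb1 (mm10), each ending at the base before the main TSS; the last overlaps an exon of a non-coding antisense gene.
H2-Aa: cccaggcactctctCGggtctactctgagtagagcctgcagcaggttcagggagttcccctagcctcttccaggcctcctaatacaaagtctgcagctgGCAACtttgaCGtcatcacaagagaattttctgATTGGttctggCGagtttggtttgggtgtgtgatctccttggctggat
H2-Ab1: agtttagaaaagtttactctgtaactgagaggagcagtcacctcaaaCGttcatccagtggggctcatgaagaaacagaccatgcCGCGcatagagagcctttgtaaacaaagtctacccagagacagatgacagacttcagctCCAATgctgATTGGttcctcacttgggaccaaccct
H2-Eb1: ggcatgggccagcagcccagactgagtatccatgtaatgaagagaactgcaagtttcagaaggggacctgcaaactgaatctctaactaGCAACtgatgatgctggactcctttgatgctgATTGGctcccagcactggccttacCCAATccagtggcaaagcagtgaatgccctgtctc

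The 3 CpGs of the H2-Aa stretch, 36, 70 and 165 bases before the start, had 0 of 123 methylated calls in B cells and 0 of 230 in T cells, which allows a level of up to 2.44% and 1.3% (3 calls of the total; the upper 95% Wilson limits are 3.03% and 1.64%). The 3 CpGs of the H2-Ab1 stretch had 0 of 169 calls in B cells and 1 of 321 in T cells. The H2-Eb1 stretch holds no CpG, and the nearest CpGs with calls were 768 bases before its start and 180 bases after it. So, at the DNA next to these starts, no difference was detectable at H2-Aa and H2-Ab1 and none could be measured at H2-Eb1. In the 150 bases before the main starts of 21935 protein-coding genes, 26.9% held ATTGG, 19.4% held GCAAC and 5.48% held both, on either strand. Of the 8 genes, H2-Aa, H2-Eb1 and H2-Ob held both, H2-Ab1 held ATTGG, H2-Oa and H2-DMa held GCAAC, and Ciita and Cd74 held neither. Only exact letters in these 150 bases were counted, so a gene without a match may still hold the element.

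The difference at H2-Aa came from CpGs on either side of this low stretch. The CpGs from 543 to 371 bases upstream were at 27.6% to 51.1% in B cells and 82.2% to 83.3% in T cells. The 7 CpGs from 62 to 467 bases downstream were at 3.03% to 72.0% and 25% to 97.3%, and the pair from 682 to 717 bases downstream at 2.70% to 2.78% and 54.5% to 95.8%. The called tiles of H2-Aa, 2 of 9 tested (1.11% in the genome), were neighbours at chr17:34286501-34287500, with differences of 52.0 points (5 B cell and 7 T cell libraries) and 39.4 points (6 and 8 libraries). At H2-Ab1 the low stretch was long: 19 CpGs from 133 bases before to 623 bases after the start had pooled levels of at most 5.26% in B cells and 5.45% among T cell calls. The called tiles of H2-Ab1, 2 of 25 tested (1.11% in the genome), lay near its 3' end (chr17:34267501-34268500), and the first read 46.9% to 85.7% in B cells and 96.2% to 98.6% in T cells (adjusted p = 3.43e-05). Windows of the 2 retained-intron starts there, TSS 34267102 and 34268270, differed by 13.6 and 13.2 points (adjusted p = 0.000178 and 0.00015) without overlap of the groups, but stayed under the limit of 20 points. At the CpG 981 bases after TSS 34267102 the pooled levels were 25.6% and 91.3%. The window 5.5 kb upstream (TSS 34257689) differed by 11.3 points (adjusted p = 0.0214) with overlap, and was not called.

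At H2-Eb1 the CpGs from 877 to 796 bases before the start were at 4% to 7.14% in B cells and 1.20% to 2.15% in T cells. The 3 CpGs from 747 to 944 bases after it were at 0 to 42.9% in B cells and 84.2% to 94.4% in T cells. Of the 4 called windows, that of TSS 34306017 had the largest difference, 29.1 points (adjusted p = 6.01e-05). The window of the start 3.7 kb downstream (TSS 34309575, 57 CpGs) was not called, with 35.3% ± 11.1 (SD, n = 8) in B cells and 38.0% ± 6.07 in T cells. H2-Eb1 had the highest share of called tiles of the 8 genes, 6 of 15 tested, with T cells higher (1.11% in the genome). The largest difference lay upstream of the gene, in a run of 3 tiles (chr17:34300501-34302000) whose middle tile read 22.4%, 31.7% and 51.9% at the lowest, median and highest of 7 B cell libraries. It read 80.0%, 82.4% and 87.2% in the 8 T cell libraries, a difference of 51.5 points (adjusted p = 5.23e-06). The tiles at the run also overlap the antisense gene Gm20513. The stretch of this tile with the most CpGs, chr17:34301015-34301264 (plus strand), held 9 CpGs, methylated in 43.2% of 292 calls in B cells and 91.3% of 643 in T cells.
H2-Eb1 upstream: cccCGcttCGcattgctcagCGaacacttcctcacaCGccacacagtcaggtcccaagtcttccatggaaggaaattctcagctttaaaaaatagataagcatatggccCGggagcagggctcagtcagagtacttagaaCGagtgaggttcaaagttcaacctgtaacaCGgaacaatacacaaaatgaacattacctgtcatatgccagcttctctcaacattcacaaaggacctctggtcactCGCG

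**Figure D3:**
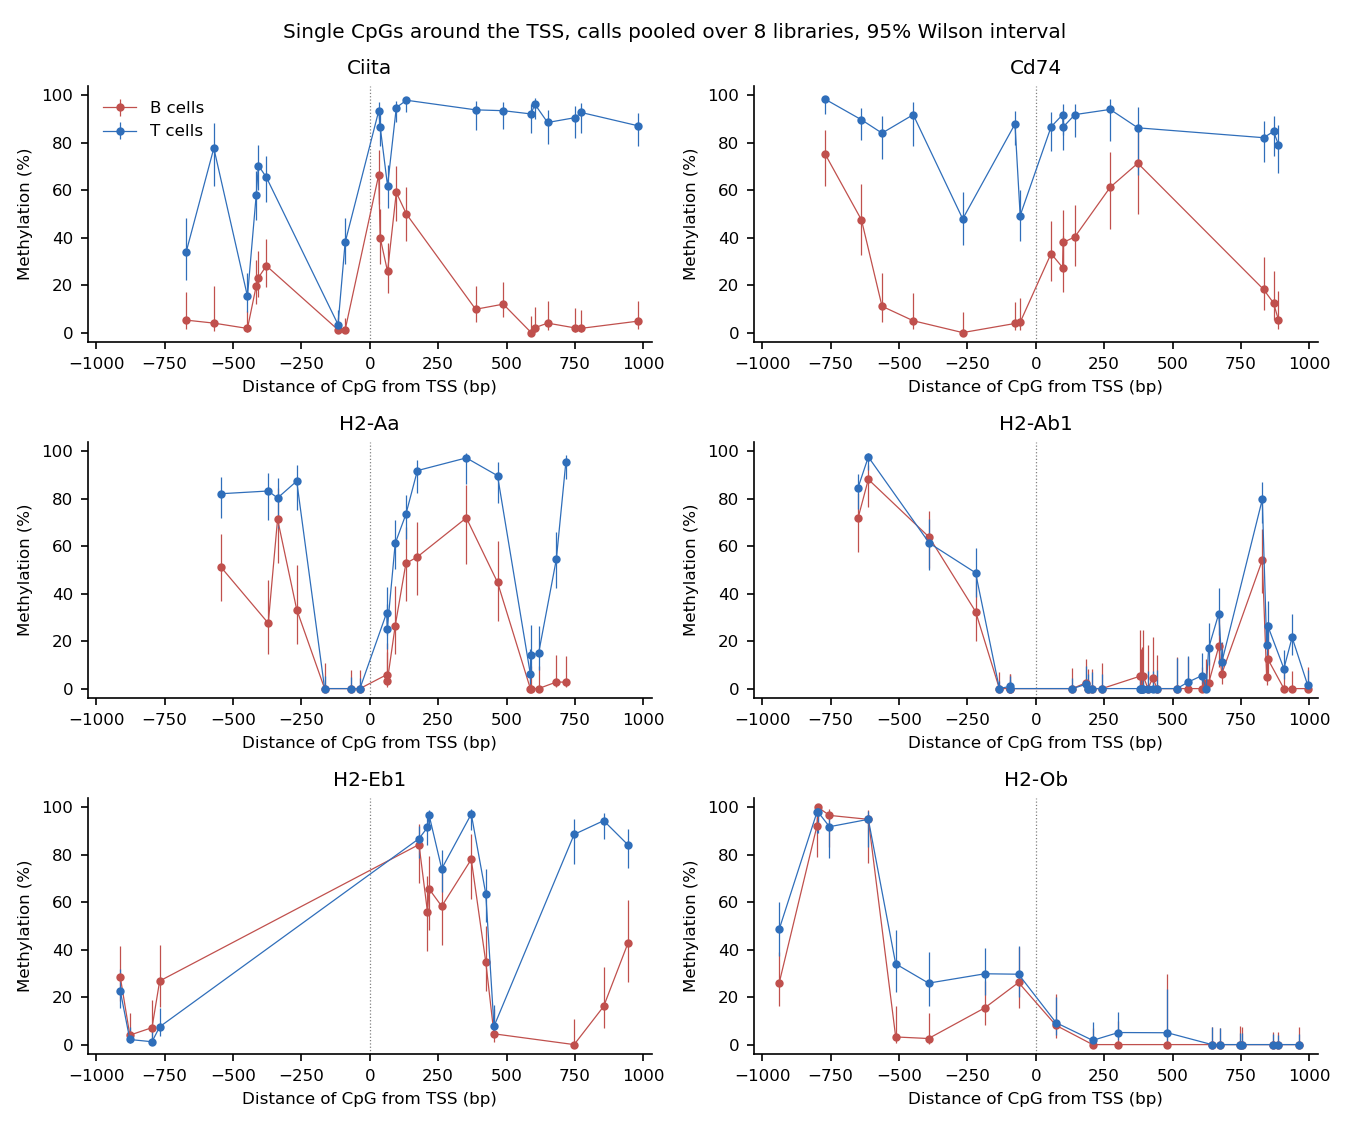
Methylation level (%, y axis) of single CpGs against their distance from a TSS (bp, x axis) for 6 genes, with calls pooled over 8 libraries; red B cells, blue T cells, bars 95% Wilson intervals, which cover counting error only. Panels are centred on the main TSS. The CpGs at 36, 70 and 165 bases before the H2-Aa start are at 0 in both cell types, whereas those at 57 and 76 bases before the Cd74 start are not.

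H2-DMa encodes the alpha chain of H2-DM, the peptide editor. Its called tiles were higher in B cells, and none of its starts was called. The window of its main annotated start (TSS 34122832, 101 CpGs) was nearly free of methylation, with a median library at 0.31% in B cells and at 0.13% in T cells, and was not called. Each of its 101 CpGs had a pooled level of at most 8.70% among B cell calls and 3.33% among T cell calls. The window 3.3 kb upstream (TSS 34119541) was alike, with each of 205 CpGs at most at 4% and 2.60%. The windows of its starts 12.8 kb downstream (TSS 34135628 and 34135654, 42 CpGs) read 15.3% ± 2.76 in B cells and 15.1% ± 1.98 in T cells. Like the main start, these begin protein-coding transcripts. There the 30 CpGs from 286 bases before to 474 bases after TSS 34135628 had pooled levels of at most 3.17% and 4.48%. The differences at the main start and at these were -0.63 and -0.45 points. At the main start it was -3.55 points with 2 kb on either side and -1.07 points in oxBS libraries. The last window (TSS 34137028) read 71.2% ± 3.71 and 73.2% ± 2.77. The main start was set by the annotation, and which H2-DMa start B or T cells use was not measured.

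Called tiles lay in the intron between these starts. They numbered 3 of the 47 tiles of H2-DMa tested and were higher in B cells, against 1.93% of all tiles tested in the genome. In the tile at chr17:34128501-34129000 (10 CpGs), B cell libraries read 40.3%, 60.6% and 71.6% at the lowest, median and highest and T cell libraries 2.74%, 7.93% and 14.2%. The groups did not overlap, and T cells were lower by 51.4 points (difference -51.4 points, adjusted p = 8.20e-07). The tile before it differed by -49.1 points and that at chr17:34130001-34130500 by -30.9 points. The tiles between them, at chr17:34129001-34130000, were also lower in T cells, by -15.4 and -15.5 points (adjusted p = 0.000149 and 0.000765), under the limit. The tiles at chr17:34128001-34129500 overlap the antisense gene CR974462.4. The most CpG-dense stretch of the strongest tile, chr17:34128740-34128989 (plus strand), had 368 of 602 calls methylated in B cells and 59 of 720 in T cells at its 9 CpGs.
H2-DMa intron: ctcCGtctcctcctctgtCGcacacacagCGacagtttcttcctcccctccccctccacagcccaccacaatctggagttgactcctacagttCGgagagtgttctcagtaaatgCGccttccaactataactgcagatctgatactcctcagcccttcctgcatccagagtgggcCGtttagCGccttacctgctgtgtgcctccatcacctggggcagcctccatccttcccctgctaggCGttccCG

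H2-Oa and H2-Ob encode the chains of H2-DO, the partner that holds H2-DM in check and is made mainly in B cells. Neither start was called. H2-Oa (TSS 34092340, 28 CpGs) read 44.7%, 51.3% and 55.9% at the lowest, median and highest B cell library and 38.4%, 43.3% and 61.4% in T cells, a difference of -3.45 points (adjusted p = 0.501). Without T cell library 15 it was -5.53 points, and it was not called. In BS libraries its sign turned (0.26 points), and in oxBS libraries it was -7.26 points. H2-Ob (TSS 34238903, 20 CpGs) read 12%, 15.9% and 28.4% in B cells and 15.7%, 24.4% and 29.4% in T cells, a difference of 5.34 points (adjusted p = 0.251). It was 8.36 points with 500 bp and 3.23 points with 2 kb on either side, and 8.39 points in BS and 2.26 points in oxBS libraries. The 12 CpGs from 9 to 611 bases after the H2-Oa start were at 0 to 8.33% in B cells and 0 to 3.37% in T cells, and the 13 CpGs from 985 to 377 bases before it were at 80.8% to 98.3% and 75.7% to 98.7%. The CpG 943 bases after the start was higher in B cells, at 71.4% against 39.4% in T cells. The pair 819 to 822 bases after it read 52.2% to 86.8% in B cells and 35.1% to 72.2% in T cells. None of the 16 H2-Oa tiles tested was called, and its largest difference was 14.6 points (chr17:34088001-34088500, adjusted p = 0.00925). H2-Ob had 2 called tiles of 24, with T cells higher (1.11% in the genome): chr17:34236001-34236500, 2.7 kb upstream, at 61.8% to 82.0% in B cells and 92.9% to 96.2% in T cells, and chr17:34248501-34249000, 9.8 kb into the gene, where the difference was 29.6 points with 6 B cell libraries. In that tile, the CpG 533 bases after TSS 34248464 was methylated in 0 of 29 calls in B cells and in 84.1% of 44 calls in T cells, while that at 522 bases was at 0 and 6.12%. The windows of the other H2-Ob starts (TSS 34240036, 34242081 and 34248464) differed by 1.60, 4.95 and 9.39 points and were not called, nor were the later H2-Oa starts (TSS 34092404, -2.54 points).

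**Figure D4:**
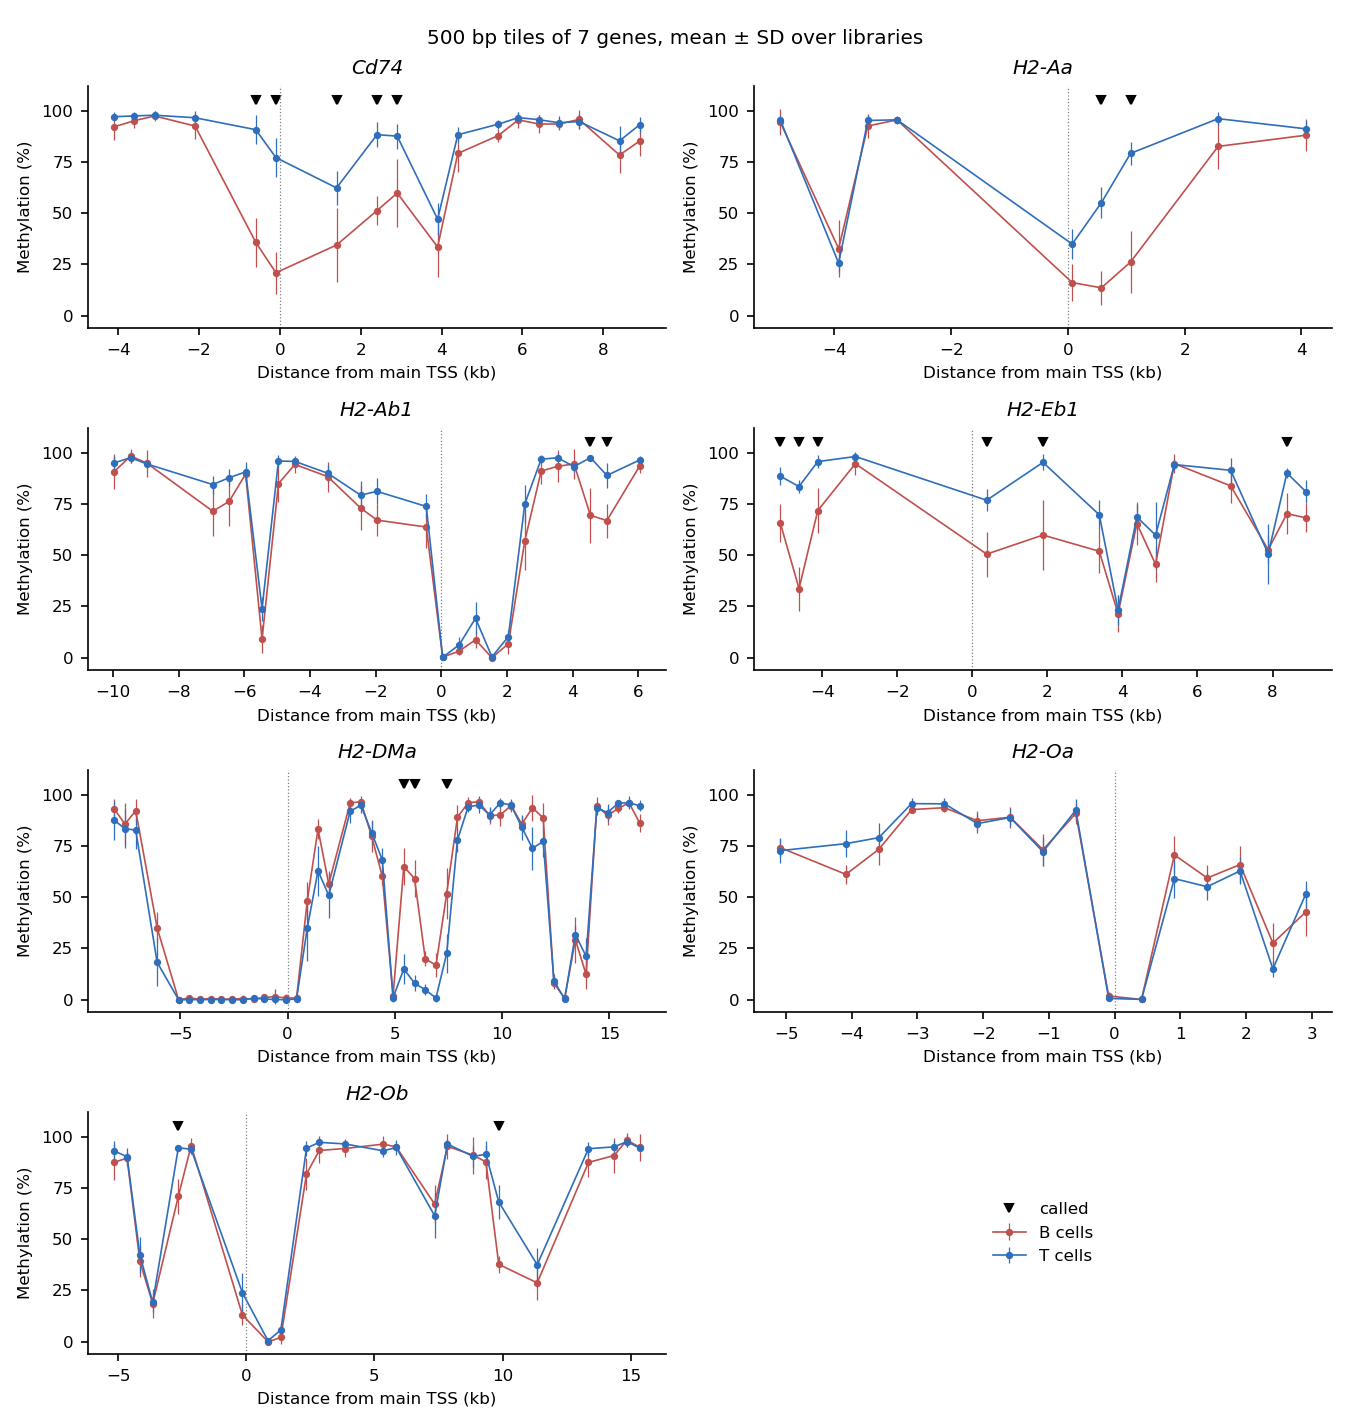
Methylation level (%, y axis) of 500 bp tiles against distance from the main TSS (kb, x axis) for the other 7 genes; means ± SD over libraries, red B cells and blue T cells, with called tiles marked by black triangles. The called tiles have T cells higher at Cd74, H2-Aa, H2-Ab1, H2-Eb1 and H2-Ob and B cells higher at H2-DMa, and H2-Oa has none.

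Together the 8 genes had 226 tiles tested, of which 33 (14.6%) were called, against 3.04% of all tiles in the genome: 30 with T cells higher and 3 with B cells higher. The median difference over the tiles tested was 1.57 points, against -0.39 points over all tiles in the genome.

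Gene bodies were taken from 1 kb downstream of the main start to the gene end, without the windows of other starts. None of the 8 bodies was called, while 0.943% of 20032 gene bodies in the genome were. At an adjusted p under 0.05 with no limit on size, 5 of 8 passed (6 at an unadjusted p under 0.05), as did 35.7% of all bodies. The differences of these 5 were 6.55 points at Ciita, 10.6 at Cd74, 14.1 at H2-Aa and 10.3 at H2-Eb1, with T cells higher, and -10.1 points at H2-DMa, with B cells higher.

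For assay and sex, no window of the 8 genes passed an adjusted p of 0.05 for BS against oxBS within B cells, within T cells, or for the interaction of cell type with assay or with sex, and no window in the genome did. At an unadjusted p under 0.05, 8 of 44 windows differed by assay within T cells (13.1% of all windows did), none within B cells (2.65%), 3 had an interaction with assay (12.3%) and 1 with sex (3.1%). Windows of nearby starts share CpGs, so these are not separate observations. The windows with an assay interaction were all of Cd74. Within T cells, the windows that differed were those at and next to the main starts of Cd74 and H2-Eb1, and that of H2-Ob TSS 34242081. At Cd74 the 4 BS libraries read 86.0% to 87.9% and the 4 oxBS libraries 75.4% to 79.3%, a difference of -9.74 points for oxBS minus BS (quasi-binomial adjusted p = 0.284). At H2-Eb1 the BS libraries read 57.1% to 68.3% and the oxBS libraries 46.7% to 56.9%, a difference of -10.9 points (adjusted p = 0.327).

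Other genes of the pathway were taken from lists. Of all main windows tested in the genome, 0.483% were called with T cells higher. A list of this size with none called is therefore not a result about its genes. Of the other class II genes, 3 had a protein-coding entry and were tested, with a median difference of 36.9 points. H2-DMb2, a beta chain of H2-DM, was called at 27.9% ± 8.70 (SD, n = 8) in B cells and 65.3% ± 5.45 in T cells. H2-Eb2, a class II beta chain gene, was called at 33.6% ± 4.63 and 76.1% ± 5.37. H2-DMb1, the other H2-DM beta chain, differed by 10.2 points (adjusted p = 0.0193) and was not called. H2-DMb1 and H2-DMb2 are closely similar copies, so reads may have been placed on either. None of 7 regulators of class II transcription was called (median difference -0.49 points), and the largest difference was at Rfxank, a subunit of RFX, at 4.92% ± 1.20 and 3.67% ± 1.18. The other regulators were also low in both cell types, such as Nfya (0.58% and 0.09%) and Creb1 (0.73% and 0.16%). Nfyc was the exception and was high in both (89.7% and 89.7%). None of 5 antigen processing genes was called (median -0.59 points), and the largest difference was at March1, a ubiquitin ligase that acts on class II molecules, at 24.7% ± 3.03 and 20.7% ± 2.88. None of 9 MHC class I genes was called (median -0.62 points). Some of them were low in both cell types, such as H2-K1 (0.62% and 0.76%), and others were not, such as Tap2 (32.2% and 28.6%). The largest difference among the class I genes was -6.03 points, at Psmb8, an immunoproteasome subunit. It read 6.30% ± 2.17 in B cells and 0.39% ± 0.26 in T cells (adjusted p = 6.56e-06, quasi-binomial model).

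**Figure D5:**
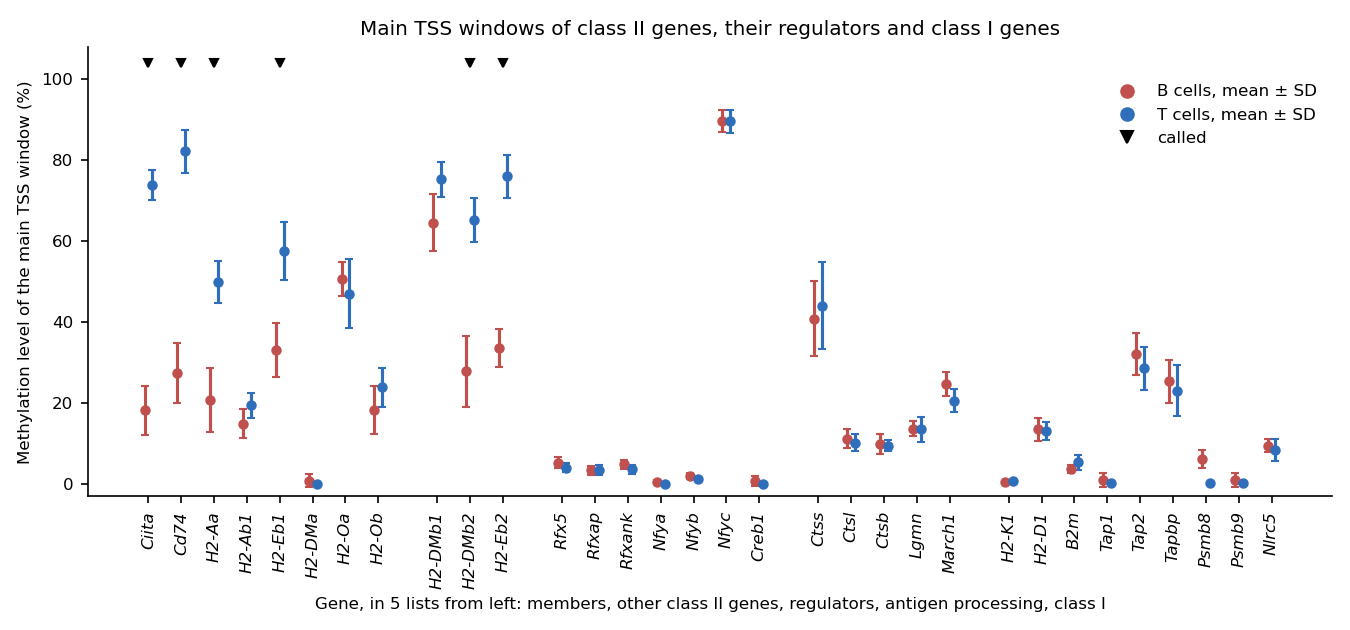
Methylation level (%, y axis) of the main TSS window, mean ± SD of 8 libraries, in B cells (red) and T cells (blue) for the 8 genes and 4 lists of related genes (x axis); black triangles mark called windows. Outside the 8 genes, H2-DMb2 and H2-Eb2 are called, and no regulator, antigen processing or class I gene is. In the genome, 0.483% of main windows are called with T cells higher.

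Among the genes whose main window was most like that of Ciita over the 16 libraries, by root mean square difference among 20440 windows, were Fam129c (7.74 points), Cd79a (7.76), Igll1 (8.31) and Gm5431 (8.85). Cd79a, a subunit of the B cell receptor, read 11.7% ± 5.98 (SD, n = 8) in B cells and 76.2% ± 5.32 in T cells.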

How the data were processed

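Counts were used as deposited by the authors: per CpG position, the number of unmethylated and of methylated calls in each of 16 libraries, with both strands added. Per the labels the submitters used Trim Galore 0.6.0, Bismark 0.20.0 and SAMtools 1.3.1 on mm10 (GRCm38), and the study kept reads with a mapping quality of at least 10. Reads are not unique molecules by identifier, so intervals cover counting error only. Calls at reference CpGs of chromosomes 1 to 19, X and Y were pooled over windows of 1 kb on either side of each protein-coding TSS (GENCODE vM21), 500 bp tiles on a fixed grid, and gene bodies. Regions needed 3 CpGs and, in at least 5 libraries of each cell type, 20 calls; other libraries were left out of that region. With 47 to 826 calls per library, 95% Wilson intervals at the main windows reached at most 13.6 points on either side. Each region was fitted with a quasi-binomial model of the calls, adjusting for sex and assay (deviance F-test, Pearson dispersion of at least 1), in Python 3.11.15 with NumPy 2.4.6, SciPy 1.17.1 and Numba 0.67.0, with Benjamini-Hochberg adjustment over all regions of a kind; limma 3.58.1 in R 4.3.3 was an alternative. On simulated calls for 91683 windows, 99% of windows changed by 30 points were called. The changed windows were a small set of intermediate pooled level. The share therefore does not cover windows of low or high level, or smaller changes.

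The main TSS was that of the transcript with the best APPRIS tag, then CCDS, then the longest. A gene's tiles ran from 5 kb upstream of its first TSS to its end. The 8 genes are named with their main window, other windows of separate position, the tile with the largest difference and runs of called tiles. Listed pathway genes are named where called, and otherwise by the largest difference of their list (the rule allowed 3). Likeness to Ciita took the 5 genes with the smallest root mean square difference. Of these, 1 is not reported here. Runs of CpGs within windows were formed by their pooled levels (at most 10% in both cell types, or 20 points apart) and are descriptions; which to name was chosen after their values were seen. The genes and lists were chosen with earlier results of these data known. H2-Ea had no entry, H2-Ea-ps and Ifi30 had no protein-coding entry, and these were not tested. Sequences are from the RefSeq GRCm38 assembly. Alternatives are listed in the closing section.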

Additional observations from a re-analysis of the deposited data

Results flagged for a closer look

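At the main TSS window of H2-DMa, 1 B cell library lay far from the other 7. The male oxBS library numbered 2 in the labels read 4.87%, against 1.12% in the next and 0 in the lowest. Its gap to the next library was 0.771 of the whole range, above the limit of Dixon's test at the 95% level. In all, 16 groups (8 genes in 2 cell types) were examined, and chance passes about 1 in 20. Without this library the H2-DMa difference was -0.21 points, and the window was called neither with nor without it. Library 2 was also the highest B cell library at other windows of low methylation, so its level is not particular to H2-DMa. It read 3.63% at Creb1 and 5.21% at Tap1, against B cell medians of 0.25% and 0.41%. At H2-K1, also low, the highest was library 11.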

How the results depend on the processing

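Of 44 windows, 15 were called in the fit reported, and 1642 in the genome in either direction. The count was 5 at a limit of 30 points (746 in the genome). It was 8 in BS libraries (1105 in the genome) and 6 in oxBS libraries (1780). It was 9 in male libraries (1099) and 5 in female libraries (1130), with 4 libraries per cell type in each subset. In oxBS libraries the genome count was thus above that of the fit reported, while the count at these genes was below it. The count at these genes was 15 without each library in turn. The main-window differences then ranged from 53.5 to 56.4 points at Ciita, 53.3 to 56.5 at Cd74, 26.6 to 29.7 at H2-Aa and 22.5 to 25.4 at H2-Eb1. At H2-Oa they ranged from -5.53 points, without T cell library 15, to -2.44 points, and oxBS libraries gave -7.26 points. The count of windows called was 13 with 500 bp on either side (1916 in the genome) and 18 at a limit of 10 points (4149). Other minimums, 2 kb on either side, no covariates, no dispersion floor, limma and both exact permutation tests gave 15. In an exact test, every window whose libraries do not overlap gets the smallest p the permutations give. The exact tests therefore add little to the lack of overlap given above. On simulated calls the exact test called 0% of windows changed by 30 points and put 98% at its smallest p. With 500 bp and 2 kb on either side the difference at Ciita was 42.9 and 32.1 points and that at Cd74 53.7 and 43.5 points. In the BS, oxBS, male and female subsets Ciita and Cd74 stayed called, whereas H2-Aa and H2-Eb1 lost the call. For H2-Aa the adjusted p was 0.0577 to 0.110. For H2-Eb1 it was 0.0556 to 0.129, except in oxBS libraries, where it was under 0.05 and the difference of 19.1 points was under the limit. Signs turned at H2-Ab1 with 500 bp on either side of the TSS (-1.18 points) and at H2-Oa in BS libraries (0.26 points), neither called. The 33 called tiles became 11 with at least 40 calls (114 tiles tested in place of 226), 19 at a limit of 30 points, 9 in BS and 12 in oxBS libraries. The share of all tiles called under each of these settings is not given here, so the fall is not a result about these genes. Gene bodies went from 0 to 4 called at a limit of 10 points. These were Cd74, H2-Aa and H2-Eb1, with T cells higher, and H2-DMa, with B cells higher. A call also needs an adjusted p under 0.05, which 35.7% of all bodies had, so the genome share at this limit is at most that. The share itself is not given here, so the rise is not a result about these genes. Assay and sex counts at these genes stayed 0 with at least 40 calls and with no dispersion floor, where 205 windows in the genome passed for assay. The subsets have fewer libraries, and why the counts moved was not tested. On 100000 simulated tiles, 76% of those changed by 30 points were called, and the changed tiles too had an intermediate pooled level. No paired analysis was possible because the labels give every library its own number, so no number is shared between cell types.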

Other observations

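Ranked within the 8 B cell libraries at the main windows of the 8 genes, libraries 3, 4 and 11 of the labels had mean ranks of 2.63 each (1 is the lowest level), and library 2 had 6.50, library 1 6.00 and library 10 5.75. Library 4 lay in the lower 4 at 7 of the 8 genes and library 3 at 7. T cell mean ranks ran from 3.13 to 5.75. The 3 low libraries are from both sexes and both assays.

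Over the class II interval from upstream of H2-Oa to the end of H2-Eb2 (chr17:34087340-34341412), 319 tiles were tested. T cells were higher in 23 called tiles (7.21%, against 1.11% of all tiles in the genome) and B cells in 22 (6.90%, against 1.93%).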
